A study of Homo sapiens with 14 samples.

Results

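The proteasome is the large protease that degrades most ubiquitin-tagged proteins in the cell. Its 20S core stacks rings of alpha subunits (PSMA genes), which gate the entry pore, on rings of beta subunits (PSMB genes), some of which carry the proteolytic sites. The 19S particle caps the core: a ring of ATPases (PSMC genes) unfolds substrates, and PSMD subunits recognise ubiquitin, hold substrates and remove the ubiquitin chains. Dedicated chaperones, PSMG1 to PSMG4 for the core and PSMD5, PSMD9 and PSMD10 for the 19S base, help to assemble the complex and leave it afterwards, and other caps (PSME genes) and the inhibitor PSMF1 bind the ends of the core. Proteasome subunit genes are known to be activated together by NFE2L1 when proteasome activity falls, and growing tumour cells, including neuroblastoma cells, depend on the complex.

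Genes were taken whose symbol in the deposited count tables is PSM followed by a letter from A to G and a number, leaving out the interferon-induced PSMB8, PSMB9, PSMB10, PSME1 and PSME2. This gave 43 of the 17810 gene identifiers counted for OmoMYC against EGFP and 44 of the 19143 counted for dTAG47 against DMSO. In each comparison 41 of them had enough counts to be tested. PSMB11, a subunit of the thymus, and PSMA8, a subunit of the testis, were not tested. PSMB11 lay at no more than 0.0987 CPM (the gene's count relative to the library total, which was scaled by the TMM method) in any library, and PSMA8, which has no entry among those 43, lay at no more than 0.0216 CPM in the parental cells. PSMA2 is listed under a second identifier, ENSG00000256646.3, which belongs to a readthrough locus, and that entry was too low to test.

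The cells were CHP-134, an established human neuroblastoma line with amplified MYCN, the gene of N-MYC. OmoMYC, a dominant-negative form of the MYC leucine zipper region, or EGFP as a control was expressed from lentiviral Tet-On constructs, each in its own engineered line kept in tetracycline-approved serum, and both lines received 1 µg/ml doxycycline for 3 days (3 libraries each). Effects of the transgene and of the line that carries it cannot be told apart. Parental cells, which carry no degradable fusion protein and were kept in normal serum, received 500 nM of the degrader dTAG47 or DMSO for 18 h (4 libraries each), as a control for effects of the compound itself. Total RNA was depleted of ribosomal RNA, and the libraries hold 28060817 to 53451641 counts. In bulk RNA, a change in the level per cell and a change in the share of cells that express a gene cannot be told apart. The summed level of 8 adrenergic neuroblastoma markers lay between 1340 and 1640 CPM in all 14 libraries. That of 6 mesenchymal or fibroblast markers lay between 45.6 and 55.7 CPM in the EGFP and OmoMYC libraries. In the parental libraries, which were scaled separately, it lay between 16.2 and 18.6 CPM. Markers of haematopoietic cells summed to at most 1.22 CPM. The 2 epithelial markers summed to at most 1.61 CPM, apart from 5.12 CPM in 1 dTAG47 library.

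MYC proteins with MAX bind the E-box CACGTG, and NFE2L1 binds antioxidant-response-like elements, searched here as TGACNNNGC. Promoter windows from RefSeq (GRCh38.p14, 250 bases before to 50 after each start) were found for 37 of the 43 member symbols, 45 windows in all. On either strand, CACGTG was present in 3 of the 45 windows (6.67%) and in 7.26% of all 35116 windows. TGACNNNGC was present in 12 (26.7%) and in 13.3% of all windows. Of the other motifs searched, CCAAT was present in 19 (42.2%, against 34.6%) and CCGGAA, the core of many ETS factor sites, in 22 (48.9%, against 17.2%). Over the 19440 windows of genes counted in either comparison, the shares were 8.44% for CACGTG, 13.9% for TGACNNNGC, 34.4% for CCAAT and 21.7% for CCGGAA. Matches of different motifs can share bases. A match describes the letters and is not evidence of binding. The following stretches are given for CACGTG and TGACNNNGC because OmoMYC acts on MYC proteins and NFE2L1 is the known activator of these genes, with the matched letters in capitals. The first 5 lines hold TGACNNNGC matches of members that fell with OmoMYC, the next is of PSMD9, which rose, and the last 2 are of members that were not called.
PSMG1, chr21:39183606-39183654, minus strand: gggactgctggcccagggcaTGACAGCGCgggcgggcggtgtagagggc
PSMG2, chr18:12658679-12658727, plus strand: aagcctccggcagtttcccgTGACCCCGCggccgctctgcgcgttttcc
PSMD12, chr17:67366714-67366762, minus strand: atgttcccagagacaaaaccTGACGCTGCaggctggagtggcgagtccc
PSMD5, chr9:120843028-120843076, minus strand: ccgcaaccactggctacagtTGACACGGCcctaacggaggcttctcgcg
PSME4, chr2:53970999-53971047, minus strand: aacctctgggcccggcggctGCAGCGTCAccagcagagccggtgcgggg
PSMD9, chr12:121888621-121888716, plus strand: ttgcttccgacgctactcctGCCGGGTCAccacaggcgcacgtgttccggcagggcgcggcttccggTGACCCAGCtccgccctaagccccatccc
PSMD3, chr17:39980750-39980798, plus strand: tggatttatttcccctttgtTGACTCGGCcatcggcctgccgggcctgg
PSMB3, chr17:38752617-38752665, plus strand: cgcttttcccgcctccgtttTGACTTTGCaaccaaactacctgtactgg
The E-box matches, of PSMB3, PSMD9 and PSME3, are the following.
PSMB3, chr17:38752491-38752528, plus strand: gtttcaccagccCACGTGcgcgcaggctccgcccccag
PSMD9, chr12:121888639-121888684, plus strand: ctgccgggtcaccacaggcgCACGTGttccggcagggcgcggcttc
PSME3, chr17:42833335-42833380, plus strand: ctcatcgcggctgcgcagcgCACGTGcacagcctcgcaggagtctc

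With OmoMYC, transcripts of the proteasome were lower for most subunits, by modest amounts. Of the 41 members tested, 21 fell, 2 rose and 18 were not called at an FDR below 0.05 by edgeR's quasi-likelihood test. Over all tested genes, 25.7% fell and 27.3% rose, 53% in all. The members that fell thus made up 51.2% of those tested, and the risers 4.88%. Log2 fold changes of the members ran from -0.74 to 0.32 with a median of -0.19 and quartiles of -0.48 and -0.01, while the median over all tested genes was 0.01 (quartiles -0.28 and 0.35). All 3 OmoMYC libraries lay below all 3 EGFP libraries for 24 members and above them for 3, which is 65.9% of the members. Of all genes, 30.3% lay below and 32% above, 62.3% together. The summed level of all members was 7001, 6948 and 6825 CPM in the EGFP libraries and 6264, 6208 and 6060 CPM in the OmoMYC libraries. These sums did not overlap. The falls were unevenly spread over the complex. They took in 6 of 7 alpha subunits (85.7%), 9 of 17 subunits of the 19S particle (52.9%) and 3 of 7 assembly chaperones (42.9%). In the beta ring 2 of 7 fell (28.6%), near the 25.7% of all genes. The base scaffolds and receptor, the base chaperones and the other caps with PSMF1 had 1 fall among 3 each (33.3%).

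**Figure D1:**
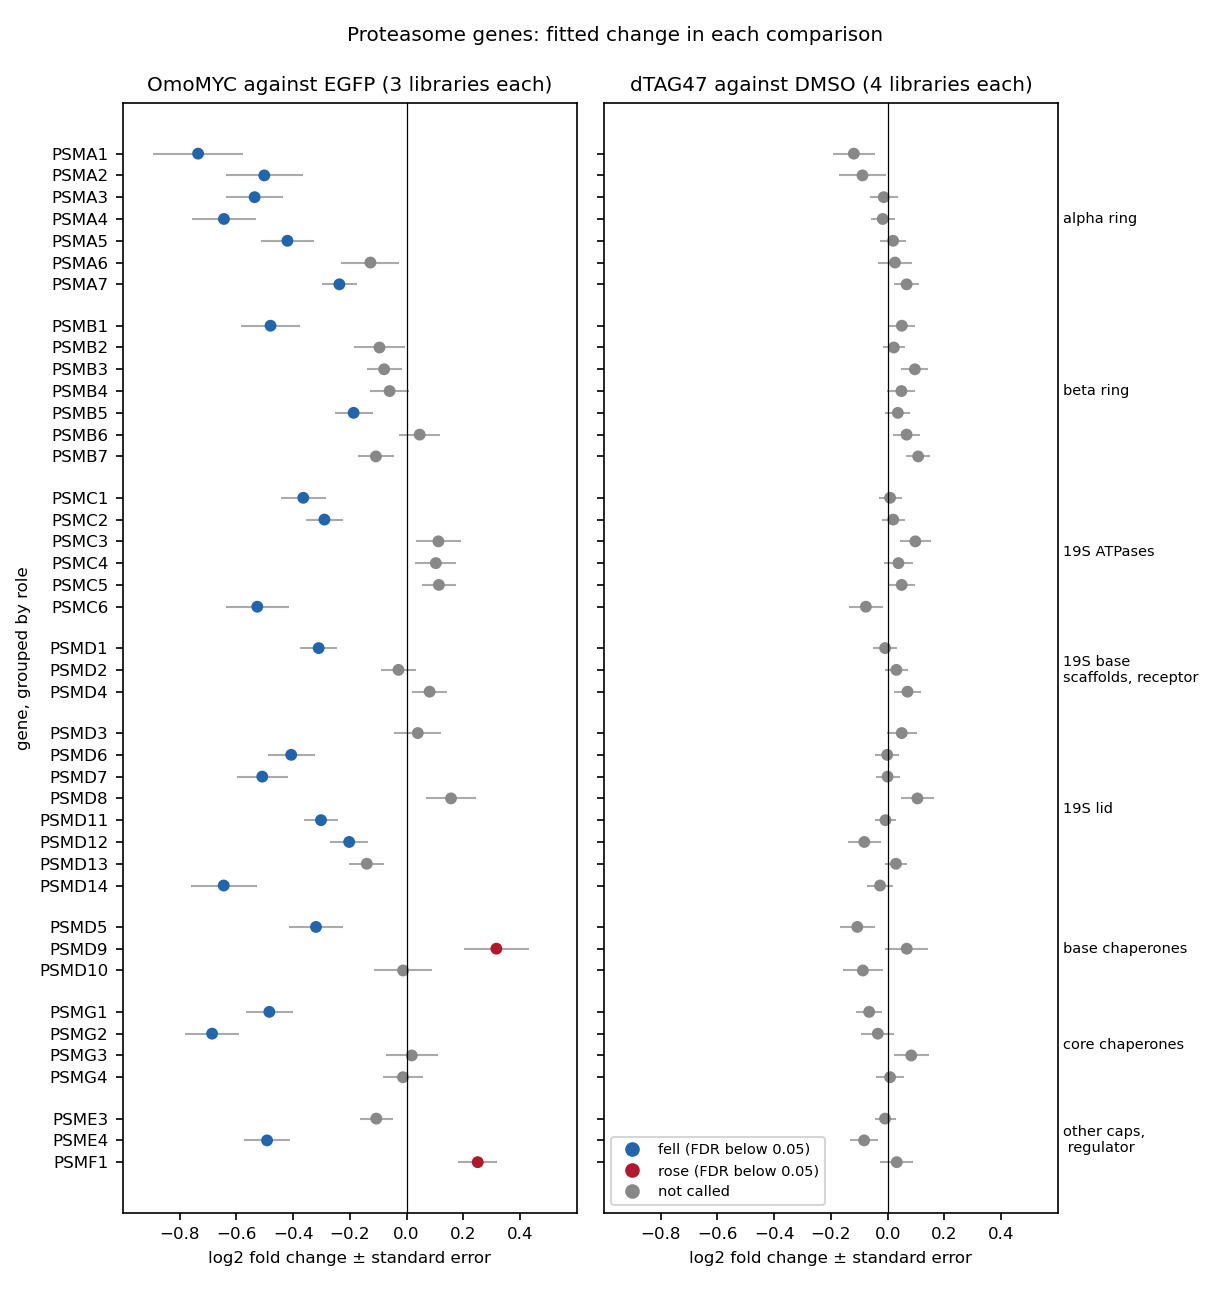
Each point is the fitted log2 fold change of a proteasome gene (x axis, with its standard error as a bar), ordered by role on the y axis, for OmoMYC against EGFP on the left and dTAG47 against DMSO on the right. With OmoMYC 21 genes fell (blue) and 2 rose (red), with values from -0.74 to 0.32, whereas with dTAG47 all 41 lay between -0.12 and 0.11 and none was called (grey).

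In the alpha ring 6 of 7 members fell (85.7%, against 25.7% of all genes). PSMA1, PSMA2, PSMA3, PSMA4, PSMA5 and PSMA7 fell, all with OmoMYC libraries below the EGFP libraries, and PSMA6 was not called (log2 fold change -0.13, FDR = 0.311). PSMA1 (chromosome 11, 14526420 to 14665181 in GRCh37) was at 41.9, 33.4 and 24.8 CPM in the EGFP libraries and at 19.99, 21.4 and 18.7 CPM in the OmoMYC libraries. EGFP replicate 1 was the highest, and its distance to EGFP replicate 3 was larger than the gap between the groups. The fitted change of PSMA1 was -0.74 ± 0.16 (SE) on the log2 scale (FDR = 0.00301), the largest fall of any member. PSMA4 was at 238.2, 204.0 and 169.1 CPM with EGFP and at 129.1, 140.1 and 122.0 CPM with OmoMYC (log2 fold change -0.64 ± 0.11, FDR = 0.000878). PSMA7, the alpha subunit with the highest level per kilobase of exon, 283 CPM per kb in EGFP cells, had a smaller fall of -0.24 ± 0.06 (FDR = 0.00788). PSMA3 (-0.54), PSMA2 (-0.50) and PSMA5 (-0.42) lay between. PSMA1, PSMA2 and PSMA6 are the alpha genes whose exons share 26.7%, 17.2% and 14.1% of their bases with another gene annotated on the same strand, and they were also the alpha genes with the lowest mean levels in EGFP cells, at 33.4, 8.69 and 14.8 CPM against 84.5 to 495 CPM for the other 4. How reads on shared bases were assigned is not given in the sources used here, so the levels of these 3 genes are uncertain.

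In the beta ring, which holds the proteolytic sites, 2 of 7 members fell (28.6%, near the 25.7% of all genes). PSMB1, a beta subunit without proteolytic activity, was at 101.7, 86.2 and 77.0 CPM with EGFP and at 58.7, 67.7 and 63.5 CPM with OmoMYC. Its groups did not overlap, and it fell by 0.48 ± 0.10 on the log2 scale (FDR = 0.00309). PSMB5 (chromosome 14, 23485752 to 23504439), the chymotrypsin-like site that bortezomib blocks, was at 195.0, 176.8 and 176.5 CPM with EGFP and at 161.5, 163.4 and 156.9 CPM with OmoMYC. Its groups did not overlap either, and it fell by 0.19 ± 0.07 (FDR = 0.0370), but the call was lost in 4 of the 6 fits that left out 1 library (FDR up to 0.107), without EGFP replicate 2 or any single OmoMYC replicate. The other proteolytic subunits were not called. PSMB6, the caspase-like site, was at 83.7, 91.8 and 92.1 CPM with EGFP and at 95.7, 89.5 and 91.0 CPM with OmoMYC (log2 fold change 0.05, 95% interval -0.11 to 0.20). PSMB7, the trypsin-like site, had a log2 fold change of -0.11 (interval -0.25 to 0.03), with all OmoMYC libraries below the EGFP libraries. PSMB2, PSMB3 and PSMB4, structural beta subunits, had values of -0.10, -0.08 and -0.06.

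Within the ATPase ring of the 19S base, PSMC1, PSMC2 and PSMC6 fell and PSMC3, PSMC4 and PSMC5 did not pass the test. PSMC6 was at 101.5, 82.3 and 73.6 CPM with EGFP and at 58.7, 63.4 and 56.6 CPM with OmoMYC, a log2 fold change of -0.53 ± 0.11 (FDR = 0.00267). PSMC2 was at 221.4, 216.0 and 210.9 CPM with EGFP and at 178.1, 183.6 and 168.5 CPM with OmoMYC (-0.29 ± 0.06, FDR = 0.00354), with little spread within either group. PSMC1 changed by -0.36 ± 0.08 (FDR = 0.00323). PSMC1 has 13 annotated pseudogene copies, and 76.1% of its exon bases lie opposite exons of NRDE2, so its counts are uncertain where copies or strands were not separated. PSMC3, PSMC4 and PSMC5 had log2 fold changes of 0.11, 0.10 and 0.11, with 95% intervals whose ends lay between -0.06 and 0.29. The OmoMYC libraries of PSMC5 (195.1 to 200.5 CPM) lay above the EGFP libraries (179.9 to 188.8 CPM).

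Of the large scaffolds and the ubiquitin receptor of the base, PSMD1 fell. PSMD1 was at 250.2, 234.1 and 224.7 CPM with EGFP and at 192.8, 192.8 and 186.4 CPM with OmoMYC, so every OmoMYC library was lower, with a log2 fold change of -0.31 ± 0.07 (FDR = 0.00275). PSMD2, the other scaffold, was at 474.2, 436.4 and 466.3 CPM against 459.5, 443.1 and 447.2 CPM and was not called (-0.03, interval -0.16 to 0.11). PSMD4, a ubiquitin receptor, was not called (0.08, interval -0.06 to 0.22).

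The lid, which removes ubiquitin from substrates, had 5 falls among 8 members (62.5%, against 25.7% of all genes). PSMD14 (chromosome 2, 162164936 to 162268228), the deubiquitinase of the lid, was at 170.0, 136.7 and 119.1 CPM with EGFP and at 91.3, 95.7 and 85.3 CPM with OmoMYC. Its groups did not overlap, although EGFP replicate 1 stood well above the other EGFP libraries, and it fell by 0.64 ± 0.12 (FDR = 0.00105). PSMD7, its partner in the catalytic dimer, was at 121.6, 107.3 and 97.5 CPM with EGFP and at 80.1, 77.8 and 71.5 CPM with OmoMYC (-0.51 ± 0.09, FDR = 0.000986). PSMD11 was at 305.5, 302.4 and 312.0 CPM with EGFP and at 256.1, 248.95 and 241.2 CPM with OmoMYC (-0.30 ± 0.06, FDR = 0.00191), and here EGFP replicate 1 lay between the others. PSMD6 fell by 0.41 ± 0.08 (FDR = 0.00224) and PSMD12 by 0.20 ± 0.07 (FDR = 0.0248), but PSMD12 lost its call without EGFP replicate 2 or without OmoMYC replicate 1 or 3 (FDR up to 0.0738). The exons of PSMD7 lie opposite another annotated gene over 31.2% of their bases. PSMD3 (0.04, interval -0.14 to 0.22), PSMD8 (0.16, interval -0.04 to 0.36) and PSMD13 (-0.14, FDR = 0.0760) were not called.

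The assembly chaperones went different ways. PSMG1 and PSMG2 form a dimer that guides assembly of the alpha ring, and both fell. PSMG2 (chromosome 18, 12658042 to 12728944) was at 46.0, 41.6 and 39.1 CPM with EGFP and at 28.9, 26.0 and 23.9 CPM with OmoMYC, a log2 fold change of -0.69 ± 0.10 (FDR = 0.000228, the smallest of any member). PSMG1 was at 74.3, 67.5 and 61.8 CPM with EGFP and at 49.2, 49.5 and 47.0 CPM with OmoMYC (-0.48 ± 0.08, FDR = 0.000789). For both genes the OmoMYC libraries were well separated from the EGFP libraries. PSMG3 and PSMG4, which form the second core dimer, were not called, with log2 fold changes of 0.02 and -0.01 and intervals from -0.19 to 0.22 and from -0.17 to 0.15. With the GC and length offsets, a fit given with the GC content of the members, both were called lower (PSMG3 -0.30, FDR = 5.7e-05, and PSMG4 -0.28, FDR = 5.49e-05).

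Among the base chaperones, PSMD5 fell, from 28.8, 26.4 and 25.1 CPM with EGFP to 20.9, 23.5 and 19.9 CPM with OmoMYC (-0.32 ± 0.09, FDR = 0.0153), a call lost without OmoMYC replicate 1 or 3 (FDR up to 0.0629). PSMD9 (chromosome 12, 122326638 to 122356203) was one of the 2 members that rose, from 8.90, 10.4 and 11.8 CPM to 12.8, 13.4 and 12.6 CPM (0.32 ± 0.12, FDR = 0.0380). EGFP replicate 1 was the lowest library for PSMD9, whose exons share 14.9% of their bases with another gene on the same strand. The call of PSMD9 was lost in 5 of the 6 fits that left out 1 library (all but the one without EGFP replicate 3), with an FDR of up to 0.160. PSMD10 did not pass the test (-0.01, interval -0.24 to 0.21).

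Of the other caps, PSME4, the subunit of a cap that opens the core without ATP, was at 290.9, 246.6 and 243.3 CPM with EGFP and at 184.4, 193.8 and 176.9 CPM with OmoMYC. It fell by 0.49 ± 0.08 (FDR = 0.000640), with no overlap of the groups. PSME3, a nuclear cap, was at 338.7, 348.4 and 345.8 CPM against 323.3, 322.1 and 313.7 CPM, also with no overlap, and was not called (-0.11, FDR = 0.140). PSMF1 (chromosome 20, 1093883 to 1170059), which can inhibit the core, rose from 45.9, 45.8 and 47.9 CPM to 55.1, 55.3 and 55.7 CPM. Its log2 fold change was 0.25 ± 0.07 (FDR = 0.0107), and the call was lost in 3 of the 6 fits that left out 1 library, those without replicate 2 of either group or replicate 3 of OmoMYC (FDR up to 0.0770).

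**Figure D2:**
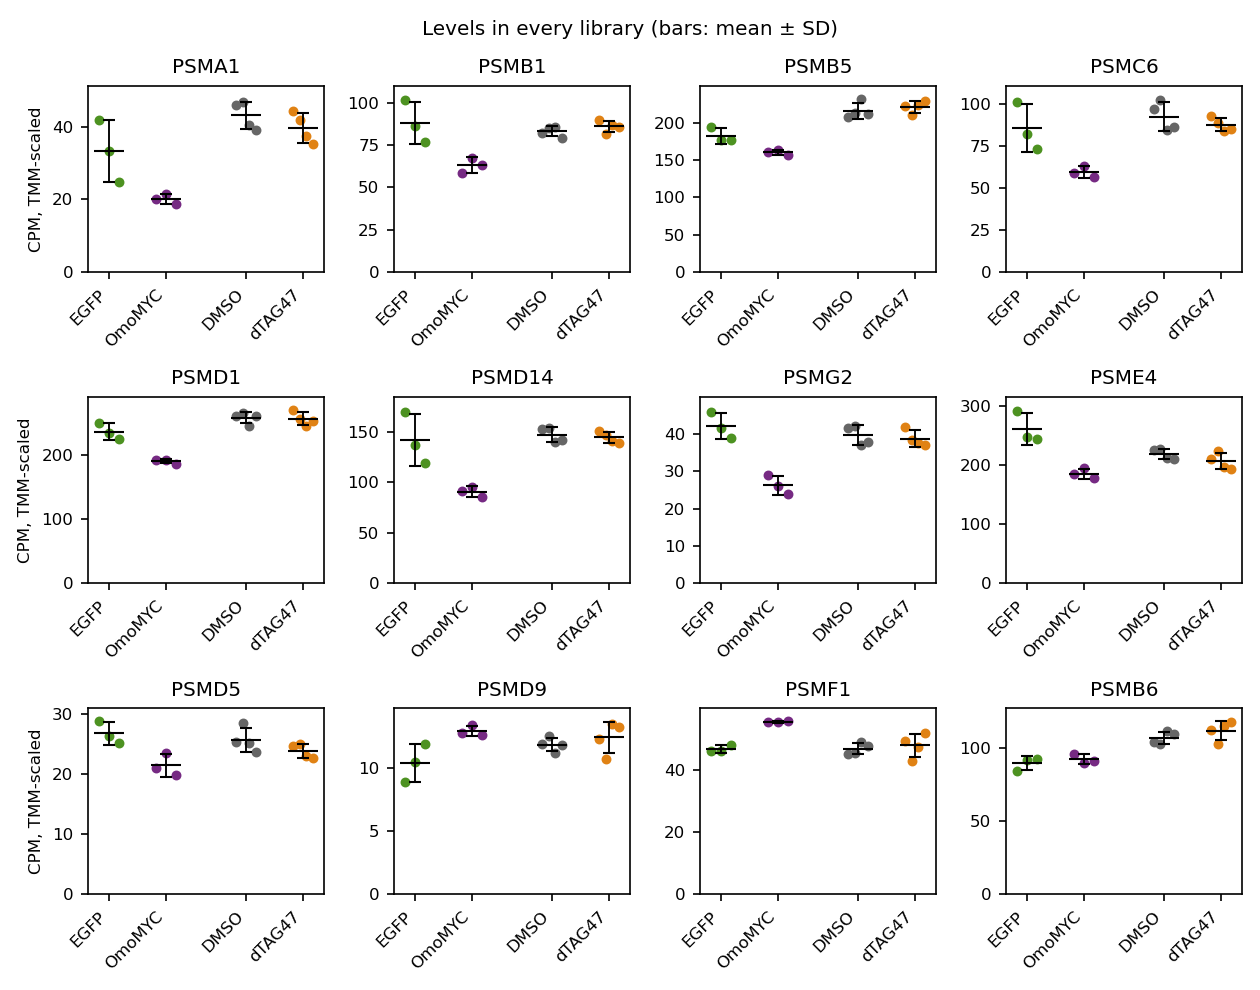
Levels of 12 proteasome genes in every library (points, TMM-scaled CPM on the y axis, starting at 0) for the EGFP, OmoMYC, DMSO and dTAG47 groups, with the mean and SD as black bars. The OmoMYC points lay below all EGFP points in PSMA1, PSMB1, PSMB5, PSMC6, PSMD1, PSMD14, PSMG2, PSME4 and PSMD5, above them in PSMD9 and PSMF1, and overlapped them in PSMB6, while the DMSO and dTAG47 points overlapped in every panel. The 2 tables were normalised separately, so levels are to be compared only within a pair.

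The EGFP libraries were not alike. EGFP replicate 1 was the highest of the 3 EGFP libraries for 20 of the 21 members that fell, and the lowest for 15 of the 20 other members tested. The same was not counted over all genes, so it cannot be read as particular to the members. Without EGFP replicate 1, 25 members fell and 1 rose, with a median log2 fold change of -0.21, and all 21 falls were kept, where 27.8% of all genes were called lower and 26.4% higher. PSMB2, PSMB3, PSMD13 and PSME3 were then also called lower, and PSMD9 lost its call. Without OmoMYC replicate 1 or without OmoMYC replicate 3, 18 members fell, where 20.4% and 21.7% of all genes were called lower.

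**Figure D3:**
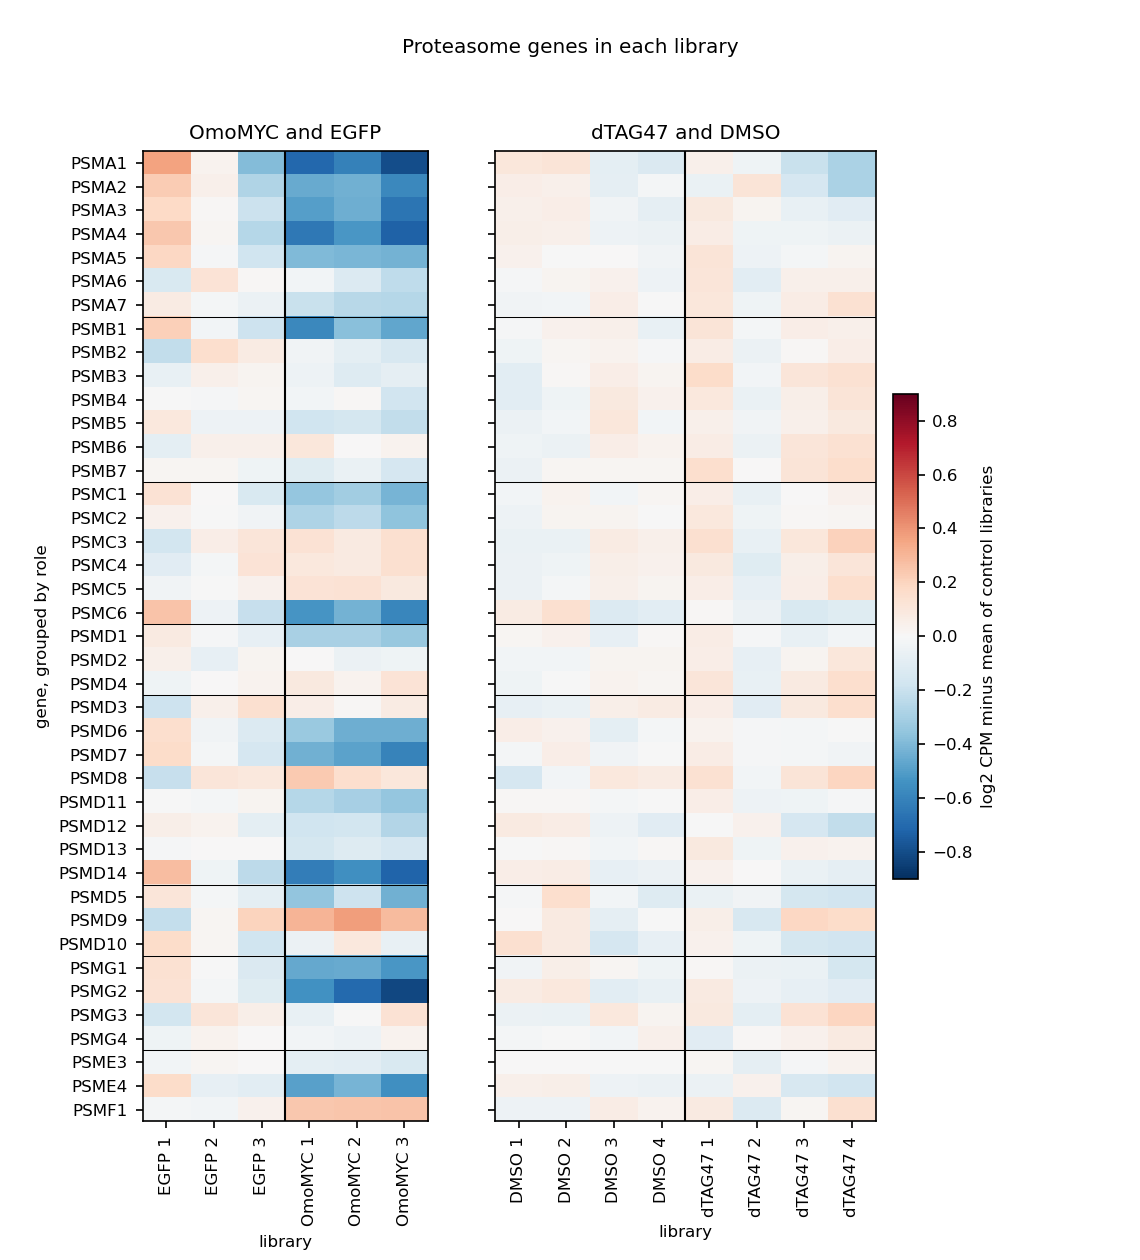
Heat maps of the 41 tested proteasome genes (rows, grouped by role) in each library (columns), where colour gives log2 CPM minus the mean of the control libraries, for OmoMYC and EGFP on the left and dTAG47 and DMSO on the right. Blue runs through the 3 OmoMYC columns for the 21 genes that fell, EGFP replicate 1 is the reddest EGFP library for 20 of them, and in the right panel colours stay pale, with dTAG47 replicate 2 the lowest of its group for 25 of the 41 genes.

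The base composition of the transcripts moved with these calls. The members that fell had a median GC content of 40.8% over their merged exons (35.1% to 52.4%), and those not called 50.8%. Over all genes, those that fell had a median of 42.2%, those not called 48.7% and those that rose 55.2%. The fit was therefore repeated, as a choice made after the data had been seen, with a smooth trend on GC content and exon length removed from each library. This fit called 28 members lower (68.3%) and 1 higher, with a median of -0.22. Over all genes it called 39.7% lower and 22.1% higher, with a median of -0.09, so both the members' count and the background moved. Of the 21 falls, 19 were kept. PSMD5 lost its call (-0.10, FDR = 0.181), PSMD12 changed sign without a call (0.059, FDR = 0.275), and the rises of PSMD9 (0.13, FDR = 0.213) and PSMF1 (0.03, FDR = 0.560) were not called. All 6 falls of the alpha ring were among those kept, as were PSMB1, PSMB5, PSMC1, PSMC2, PSMC6, PSMD1, PSMD6, PSMD7, PSMD11, PSMD14, PSMG1, PSMG2 and PSME4. PSMG2 kept a log2 fold change of -0.73, and PSMA1 and PSMD14 moved to -0.53 and -0.37. Members rich in GC shifted downwards, with PSMG3 at -0.30, PSMD3 at -0.26, PSMC3 at -0.14 and PSMD8 at -0.13, all called lower in this fit and all above 0 without the offsets. By role, this fit called 4 of 4 core chaperones, 7 of 8 lid members, 6 of 7 alpha subunits, 4 of 6 ATPases and 3 of 7 beta subunits lower. PSMD10 went the other way, to 0.34 (FDR = 4.78e-05). Outside the 19, PSMA6, PSMB2, PSMB4, PSMB6, PSMB7, PSMC4, PSMC5 and PSMD4 were called in neither fit. The calls of the remaining members thus depended on this choice. The part of base composition in the OmoMYC differences was not tested beyond this fit.

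**Figure D4:**
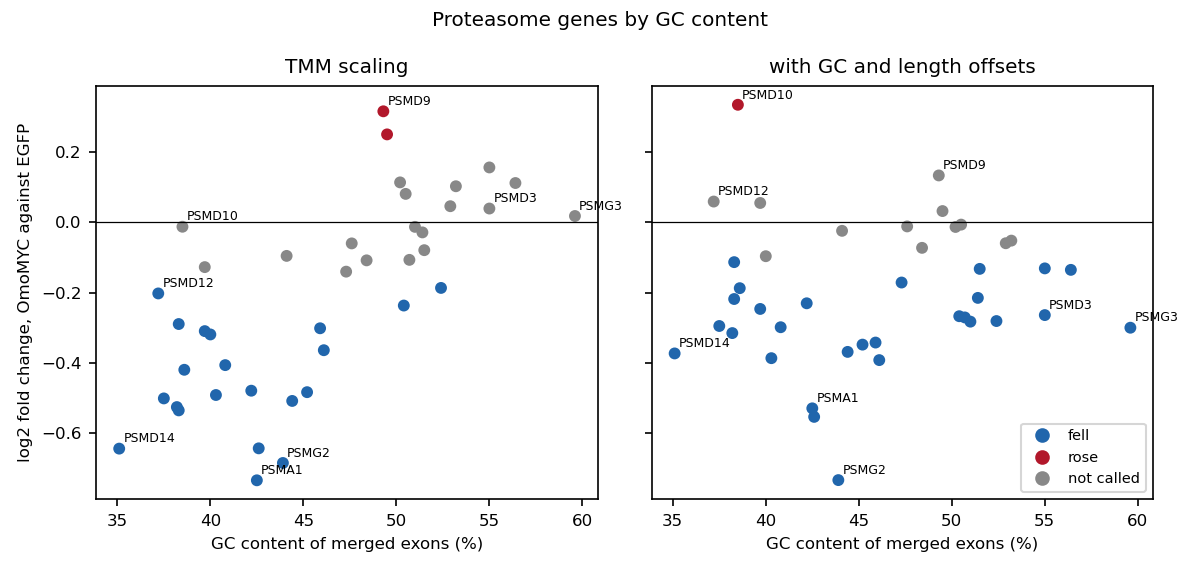
Log2 fold change of the 41 proteasome genes with OmoMYC (y axis) against the GC content of their merged exons in percent (x axis), with TMM scaling on the left and with GC and length offsets on the right. On the left the 21 genes that fell (blue) lie mostly towards low GC content (median 40.8%), and on the right the 28 called lower lie across the whole range, with PSMD10 the 1 gene called higher.

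Of the 21 members that fell, 19 had a promoter window. Here a member was counted if any of its windows held the motif, whereas the shares of all genes are of single windows. Some members have several windows, so the counts and the shares are not in the same unit. None of these held CACGTG, which is rare, present in 8.44% of the windows of all genes counted in either comparison. TGACNNNGC, present in 13.9% of those windows, was found in 7 of the 19 (PSMA4, PSMD1, PSMD5, PSMD12, PSME4, PSMG1 and PSMG2). Of the 14 members not called that had a window, 4 held TGACNNNGC (PSMB3, PSMC4, PSMC5 and PSMD3), and PSMB3 and PSME3 held CACGTG. The window of PSMD9, which rose, held both motifs. CCGGAA was found in 10 of the 19, and in 9 of the 14 (21.7% of the windows of all counted genes). CCAAT was found in 10 and in 8 (34.4% of those windows). These are counts of letters in short windows and were not tested.

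Other genes of the pathway, from a list of 39 partners that work with the proteasome, moved in both directions with OmoMYC. Of 38 tested, 14 fell (36.8%, against 25.7% of all genes) and 4 rose (10.5%, against 27.3%), with a median log2 fold change of -0.08. In all 47.4% were called, against 53% of all genes. UBA1, the main ubiquitin-activating enzyme, had 0 to 2 counts in every library of this table and was not tested, although it was at 338 CPM or more in every parental library. UCHL5, a deubiquitinase of the 19S particle, was at 134.8, 120.3 and 105.9 CPM with EGFP and at 73.8, 79.5 and 73.8 CPM with OmoMYC (-0.67 ± 0.09, FDR = 0.000194), the largest fall of the list. RPS27A, which encodes ubiquitin fused to a ribosomal protein, was at 642.0, 488.8 and 389.1 CPM against 336.1, 346.9 and 316.7 CPM (-0.60, FDR = 0.00501), a call lost with the GC and length offsets (-0.51, FDR = 0.0536). Neither gene overlapped between groups, and in both EGFP replicate 1 was the highest. SHFM1, the small lid subunit also called SEM1, was at 95.4, 71.4 and 66.9 CPM against 54.0, 50.7 and 50.2 CPM (-0.59, FDR = 0.00218). POMP, the chaperone that matures the 20S core, was at 82.9, 72.7 and 60.5 CPM against 48.9, 50.1 and 45.3 CPM (-0.58, FDR = 0.00127). Both were thus lower in every OmoMYC library. USP14, another deubiquitinase of the particle, and NGLY1, which processes NFE2L1, were chosen for mention after their values were seen, and fell by 0.47 (FDR = 0.00103) and 0.50 (FDR = 0.00190).

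NFE2L1, the activator of proteasome genes, was at 263.7, 286.1 and 347.8 CPM with EGFP and at 369.0, 367.7 and 378.2 CPM with OmoMYC. All OmoMYC libraries were above the EGFP libraries, and NFE2L1 rose by 0.31 ± 0.09 (FDR = 0.0159), but the call was lost in 3 fits that left out 1 library (FDR up to 0.0842), those without replicate 2 of either group or replicate 3 of OmoMYC, and the sign changed with GC and length offsets (-0.063, FDR = 0.188). ZFAND2B (0.32) and UBQLN4 (0.28), a pair of ubiquitin-binding shuttle proteins, also rose (FDR = 0.0239 and 0.0264), and neither was called with the offsets. ZFAND2B was also not called in 4 fits that left out 1 library (without EGFP replicate 1 or 3, or OmoMYC replicate 2 or 3), and UBQLN4 not in 4 (without EGFP replicate 2 or any single OmoMYC replicate). ADRM1, a ubiquitin receptor of the 19S base, was at 75.2, 108.3 and 118.8 CPM against 123.7, 119.2 and 129.3 CPM, again with EGFP replicate 1 lowest, and was not called (0.30, FDR = 0.0866). It was called without EGFP replicate 3 (0.41, FDR = 0.00724) and in the fit with the replicate number as a block. Of the interferon-induced genes left out by name, PSME1 (0.33, FDR = 0.00538) and PSME2 (0.22, FDR = 0.0434) rose and PSMB10 was not called (0.36, FDR = 0.0911), and with the offsets none of the 3 was called. PSME2 lost its call in each of the 6 fits that left out 1 library.

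**Figure D5:**
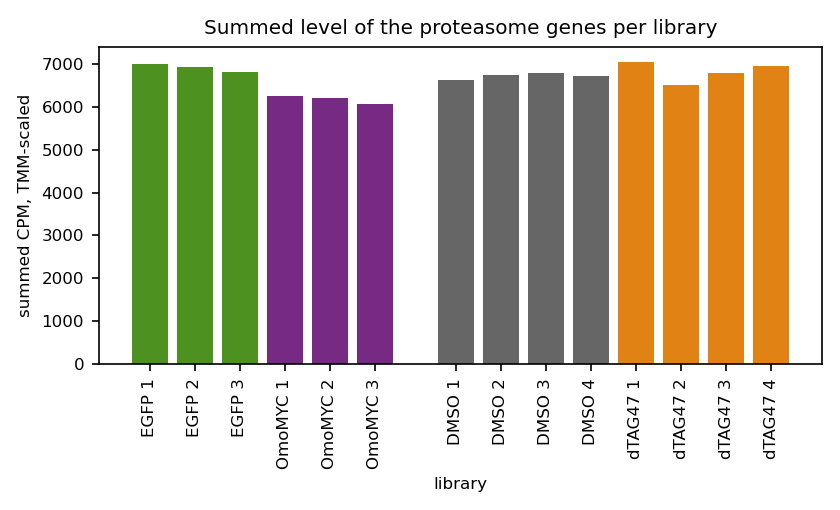
Summed TMM-scaled CPM of all proteasome members (y axis, from 0) in each library (x axis). The 3 OmoMYC libraries (6060 to 6264) lie below the 3 EGFP libraries (6825 to 7001), and the dTAG47 libraries (6519 to 7052) span the range of the DMSO libraries (6635 to 6788); the tables were normalised separately.

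In parental cells treated with dTAG47, proteasome transcripts stayed close to the DMSO level. None of the 41 members tested was called by edgeR's quasi-likelihood test at an FDR below 0.05, where 0.159% of all genes were called, and DESeq2 and limma-voom called none either. At an unadjusted p below 0.05, 1 member passed, where 7.28% of all genes did. Log2 fold changes ran from -0.12 to 0.11 with a median of 0.02, against a median of 0.00 over all genes, and 24 members were higher and 17 lower. No member had groups that did not overlap, which 3.34% of all genes had. The 95% intervals of all members lay between -0.28 and 0.23.

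PSMB5 was at 208.5, 212.5, 231.6 and 211.9 CPM with DMSO and at 222.7, 210.8, 223.3 and 229.4 CPM with dTAG47 (0.04 ± 0.04, interval -0.06 to 0.13). PSMD14 was at 153.4, 154.0, 140.0 and 142.2 CPM with DMSO and at 151.0, 147.3, 141.0 and 139.4 CPM with dTAG47 (-0.03 ± 0.05, interval -0.12 to 0.07). In both genes the groups overlapped over most of their range, and replicates 3 and 4 of PSMD14 lay below replicates 1 and 2 in either group. The genes with the lowest values were PSMA1 (-0.12 ± 0.07) and the base chaperone PSMD5 (-0.11 ± 0.06), neither of them called (FDR = 0.687 and 0.682).

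All 7 beta subunits had positive values, from 0.02 to 0.11, with none called. PSMB7 was the member that passed without adjustment. It was at 172.6, 180.7, 180.7 and 180.7 CPM with DMSO and at 198.1, 178.9, 193.9 and 199.1 CPM with dTAG47, where dTAG47 replicate 2 was within the DMSO range and the other 3 were above it. Its log2 fold change was 0.11 ± 0.04 (interval 0.02 to 0.20, FDR = 0.673). In the alpha ring 3 members were higher and 4 lower, in the ATPase ring 5 were higher and 1 lower, and in the lid 3 were higher and 5 lower, with medians between -0.01 and 0.03. PSMG2 was at 41.6, 42.3, 37.03 and 37.8 CPM with DMSO and at 41.98, 38.4, 37.7 and 36.95 CPM with dTAG47 (-0.03 ± 0.06), PSME4 had a value of -0.08 ± 0.05, and PSMF1 of 0.03 ± 0.06.

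The parental libraries differed by replicate. Of the 41 members, dTAG47 replicate 2 was the lowest library of its group for 25, and dTAG47 replicate 1 the highest for 20. This too was not counted over all genes. Without dTAG47 replicate 2, no member was called, where 0.221% of all genes were called lower and 0.358% higher, and the median was 0.04. In that fit 13 members passed an unadjusted p of 0.05. The share of all genes that did so was not counted, so the 13 cannot be read as particular to the members. Without dTAG47 replicate 1, the median was 0.00. With a factor that separates replicates 1 and 2 from replicates 3 and 4, 2.90% of all genes were called lower and 2.58% higher, and among members PSMA1 was called lower (-0.12, FDR = 0.0496) and PSMB7 higher (0.11, FDR = 0.0375). In replicates 1 and 2 alone no member was called, where 0.0207% of all genes were called lower and 0.0276% higher. PSMB7 was at 0.10 and PSMA1 at -0.09. In replicates 3 and 4 alone, 2 members were called lower (4.88%) and 1 higher (2.44%), near the 3.24% and 2.93% of all genes. These were PSMD12 at -0.12 (FDR = 0.0161), PSME4 at -0.11 (FDR = 0.0206) and PSMB7 at 0.12 (FDR = 0.0161). PSMA1 was at -0.14 (FDR = 0.0845) and was not called. Among the partners, none of 39 was called in the fit without that factor. UCHL5 was at 126.1, 124.8, 114.1 and 108.8 CPM with DMSO and at 107.7, 115.0, 104.3 and 96.4 CPM with dTAG47, with a value of -0.16 ± 0.06 (FDR = 0.673). It was called lower with the factor (-0.16, FDR = 0.00408) and in replicates 3 and 4 alone (-0.15, FDR = 0.00221). POMP (0.00), SHFM1 (0.02), NFE2L1 (0.05) and ADRM1 (0.09) were not called in the fit without the factor.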

How the data were processed

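The authors removed adapters with Cutadapt, used STAR for alignment to hg19, and obtained gene counts with FeatureCounts. These deposited counts are raw whole numbers, with no normalization. Tool versions, annotation, strand and the handling of reads on several genes are not given in the sources used here. The study analysed 3 and 4 biological replicates per group, and depth was 28060817 to 38358128 counts per library in the induced lines and 40861430 to 53451641 in parental cells.

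From these counts, each table was fitted alone in R 4.3.3 with edgeR 4.0.16 (filterByExpr, TMM, robust quasi-likelihood test, Benjamini-Hochberg adjustment over all 13803 and 14470 tested genes, FDR below 0.05). The study's methods name DESeq2 (here 1.42.0), which was run as an alternative, as were limma-voom (limma 3.58.1), other scalings and filters, a replicate block, leaving out each library and a test against a 1.5-fold change (glmTreat). SE is the absolute log2 fold change over the square root of F, intervals are 95%, and a prior count of 2 was used. With 3 libraries against 3, an exact two-sided permutation test cannot give a p-value below 0.1, and with 4 against 4 none below 0.0286. The fits were also run on simulated counts in which few genes were changed, evenly up and down. In the setting of OmoMYC against EGFP, 6.06% of calls by edgeR, 8.72% by DESeq2 and 5.49% by limma-voom were false. In that of dTAG47 against DMSO these were 4.57%, 4.57% and 4.02%. With OmoMYC 53% of all genes were called, so the simulation does not show how the fits perform on such data.

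Coordinates, exon overlaps and GC content come from GENCODE 44 lifted to GRCh37, where all 44 members were found, and promoters from RefSeq. Of these, 17 have annotated pseudogene copies. Members and lists were chosen with earlier results of these data known. In each role group, the rule gives every library's value for the largest called fall, the largest called rise and any member called against the majority, and always for PSMB5 and PSMD14. It also names ADRM1, SHFM1, POMP, NFE2L1 and the 3 largest called falls and rises among partners. Values of every library for other members were added afterwards.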

Additional observations from a re-analysis of the deposited data

Results flagged for a closer look

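Among 104 groups of 4 parental libraries examined (the members and the partners named), 3 had 1 library far from the others by Dixon's test at its 95% critical value, fewer than the about 1 in 20 that chance gives. PSMA4 in dTAG47 replicate 1 was at 211.7 CPM, with the other dTAG47 libraries at 194.9 to 197.3 CPM. POMP in the same library was at 91.2 CPM, with the others at 82.0 to 83.2 CPM. PSMB7 in DMSO replicate 1 was at 172.6 CPM, with the others at 180.7 CPM.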

How the results depend on the processing

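In OmoMYC against EGFP, DESeq2, limma-voom, RLE factors, library size only, no filter and at least 10 counts in every library each called 21 members lower and 2 higher. Of all genes, these settings called 20.2% to 26.6% lower and 22% to 28.3% higher. Upper quartile factors called 22 lower and 1 higher (27.4% and 25.7% of all genes), and GC and length offsets 28 and 1 (39.7% and 22.1% of all genes). A test against a 1.5-fold change (glmTreat) called 0 members, 0 lower and 0 higher, where 1.73% of all genes were called lower and 6.85% higher. Leaving out 1 library gave 18 to 25 lower and 0 to 2 higher, with medians from -0.24 to -0.19. The background moved as well, with 20.4% to 29.9% of all genes called lower and 19.4% to 29% higher. Of the members, 0 were called higher without replicate 2 of either group or replicate 3 of OmoMYC. Without the filter the median was -0.14, with 2 low entries added. Among members and named partners called with the offsets, without them or both, the sign changed for PSMD8 (-0.13), PSMD10 (0.34), PSMD3 (-0.26), PSMG3 (-0.30), PSMC3 (-0.14), PSMD12 (0.059), NFE2L1 (-0.063) and UBQLN4 (-0.019). It also changed for PSMA6 (0.055), PSMB6 (-0.060), PSMC4 (-0.052), PSMC5 (-0.013), PSMD4 (-0.0064) and ADRM1 (-0.071), which were called in neither fit. The offsets moved the calls over all genes from 3545 lower and 3766 higher to 5379 and 2997. In dTAG47 against DMSO, the factor for replicates 1 and 2 against 3 and 4 called 2 members, 1 lower and 1 higher, and replicates 3 and 4 alone called 3, 2 lower and 1 higher. Every other setting tried called 0. Over all genes, the factor moved the calls from 6 lower and 17 higher to 420 and 374, replicates 3 and 4 alone to 470 and 426, the offsets to 38 and 77, and DESeq2 to 16 and 43. The cause of these changes was not tested. Same-numbered libraries did not deviate together throughout (correlations -0.07 to 0.29 and 0.01 to 0.16), so replicate numbers were not taken to pair samples. With the replicate block, 21 members were called lower and 2 higher in OmoMYC, and 0 members were called in dTAG47. In that fit ADRM1 (0.32) was called in OmoMYC and UCHL5 (-0.16) in dTAG47. The calls over all genes were 3867 lower and 4233 higher in OmoMYC, and 362 and 306 in dTAG47. Not every library correlated best with its own number. Depth allowed all 41 members to be tested, but 3 or 4 libraries per group and the spread of the EGFP libraries limit the changes that can be seen.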

Other observations

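The tables share 17227 gene identifiers, and 102 of these had a mean of at least 20 CPM in the parental table and under 0.1 CPM in the table of the induced lines, while 0 had the opposite pattern. They include genes that most cells use, such as ACTG1 (mean 2804 CPM against 0.03), TUBB (2151 against 0.02) and FLNA (714 against 0.01), and UBA1 (364 against 0.02). For the 41 members above 1 CPM in parental cells, the ratio of the mean level in the induced lines to that in parental cells lay between 0.644 and 1.18, so no member was near 0 in 1 table only.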
